A study of Mus musculus with 8 samples.

Results

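The cytosolic ribosome is built from a large and a small subunit, each a scaffold of ribosomal RNA that carries a fixed set of small proteins. The genes of these proteins are among the most strongly transcribed in growing cells, and their mRNAs begin with a run of pyrimidines, the 5′ terminal oligopyrimidine (TOP) motif, through which their translation is switched as a group. The Rpl genes encode proteins of the large subunit and the Rps genes those of the small subunit, while a few related copies (Rpl3l, Rpl22l1, Rpl36al, Rpl7l1, Rps27l) resemble a family member. The genes described here were the array's gene names that begin with Rpl or Rps and a digit, together with Rplp0, Rplp1, Rplp2 and Rpsa and without the Rps6 kinases. This name rule, which used no measured value, found 82 of the 27962 gene names on the array, with 137 of its 41174 probes. They were 45 large subunit genes, 31 small subunit genes, 5 related copies and Rps19bp1, which encodes a protein that binds Rps19 and is no ribosomal protein. All 82 passed the filter on dim probes and were well above background on all 8 arrays, so none was lost to it. Rpl34, Rpl10l, Rpl39l, Rpl26l1 and Rps4l were not analysed here.

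The study precipitated RNA bound to Dazl, a germ cell RNA-binding protein, from testes of male mice of postnatal day 14 and a mixed C57BL/6 129SV strain, whose juvenile germ cells carried a Dazl-GFP-V5 fusion. All 4 groups share that fusion, age and strain, and each has 2 arrays. The V5 group is RNA precipitated with an antibody to the V5 tag, the GFP group RNA precipitated with an antibody to the GFP tag, the IgG group a mock precipitate with normal mouse IgG, and the input group total RNA without precipitation. No crosslinking was used, and the labels name neither the promoter that drives the fusion nor how many animals a sample pools. The study's design text names an antibody to PABP1 where the samples name one to GFP, and 2 samples, input replicate 2 and V5 replicate 1, carry descriptions that go against their titles on whether the RNA was precipitated. The groups follow the titles and antibodies. Nothing in the labels says that the replicates came from separate animals, so a p-value here measures the spread between arrays, which may be technical.

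Promoter windows of members on which the results turn are shown first, 30 bases before and 25 after the annotated start, read 5′ to 3′ on the gene's strand from RefSeq's annotation of GRCm38.p6. Rpl4, Rpl5 and Rps3a had the lowest levels in the precipitates against input, Rpsa and Rps27 were at the other end, and Rpl31, Rpl7l1 and Rps27l exceeded the mock. The windows lie at chr9:64173357-64173411 (plus strand) for Rpl4, chr5:107900498-107900552 (plus) for Rpl5, chr3:86142644-86142698 (minus) for Rps3a, listed as Rps3a1, chr9:120127736-120127790 (plus) for Rpsa and chr3:90213624-90213678 (minus) for Rps27. Those of the other three are chr1:39367821-39367875 (plus) for Rpl31, chr17:46782632-46782686 (minus) for Rpl7l1 and chr9:66946056-66946110 (plus) for the upstream start of Rps27l. Capitals mark CTTTCC, a run of pyrimidines, or CCGGAAG, the core that Ets family factors such as GABP bind, on either strand. A TOP motif lies on the gene's strand at the start of the mRNA, so a marked CTTTCC need not be one. In Rpl7l1 it lies on the opposite strand, and in Rpl4 it lies before the annotated start.
Rpl4: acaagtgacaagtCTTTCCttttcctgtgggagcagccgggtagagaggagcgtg
Rpl5: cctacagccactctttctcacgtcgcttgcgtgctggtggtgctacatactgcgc
Rps3a: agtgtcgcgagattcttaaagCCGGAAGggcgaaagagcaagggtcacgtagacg
Rpsa: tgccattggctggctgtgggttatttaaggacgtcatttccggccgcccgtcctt
Rps27: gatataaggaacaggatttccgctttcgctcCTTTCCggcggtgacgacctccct
Rpl31: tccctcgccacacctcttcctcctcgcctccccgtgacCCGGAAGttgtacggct
Rpl7l1: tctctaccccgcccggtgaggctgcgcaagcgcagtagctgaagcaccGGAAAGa
Rps27l: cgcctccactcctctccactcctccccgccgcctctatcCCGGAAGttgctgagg
Of the 82 members 62 matched RefSeq's promoter table. CTTTCC, searched on both strands within 25 bases either side of the start, was present in 19.4% of these members, against 5.45% of all 27025 genes in the table. On the gene's strand alone it was present in 16.1% of members and 2.92% of all genes. CCGGAAG was present on either strand of the 300-base window in 38.7% of members and 9.93% of all genes, and ATGGCGG, the core bound by YY1, in 16.1% and 4.69%. TATAA was present in 27.4% of members and 28% of all genes. The windows shown included some with CTTTCC, some with CCGGAAG and some with neither, both for members low and for members high in the precipitates.

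Levels are given as log2 of the processed fluorescence signal minus the array's 75th percentile, so a value of 0 is the level of that percentile and a difference of 1 is a doubling. They compare arrays for 1 gene, not genes with each other. The arrays were alike in quality, with 57.2% to 62.2% of 43379 spots well above background and no saturated spot. Replicates of a group differed by a median of 0.05 (V5), 0.07 (GFP), 0.12 (IgG) and 0.09 (input) over the 82 members on the log2 scale. Per the file headers V5 and GFP share a slide and IgG and input share the other, so for V5 or GFP against IgG or input, slide and group cannot be told apart. The label calls the material germ cells, but 43 markers of germ, Sertoli, Leydig, myoid, endothelial, erythroid and blood cells were looked up. Of these 38 were measured, and all 38 were well above background on both input arrays. To count as measured, a marker already had to be well above background on both arrays of some group. Dmc1, Lyz2 and Adgre1 were not among the array's gene names. The filter on dim probes left 5 of 6 Leydig markers and 4 of 5 erythroid markers.

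Against the mock, ribosomal protein mRNAs lay together slightly below the level of the IgG arrays in both precipitates, close to the shift of genes in general. The median level of the 82 members was 6.08 and 6.01 on the V5 arrays and 5.89 and 5.68 on the GFP arrays, against 6.32 and 6.20 on the IgG arrays. The median log2 fold change was -0.25 in V5 and -0.40 in GFP, where the medians of all 17593 genes tested were -0.21 and -0.32. How close the members lay to all genes depended on the processing. The member median minus that of all genes was -0.042 in V5 and -0.075 in GFP. It was -0.23 and -0.26 with normexp background, and 0.06 and 0.004 with quantile normalization. Without IgG replicate 2 it was -0.14 and -0.18, and without IgG replicate 1 it was 0.05 and -0.01. Of the members 44 passed the test as lower and 2 as higher in V5 (limma, Benjamini-Hochberg adjusted p under 0.05), or 53.7% lower, with 40.3% of all genes called lower, 16.7% called higher and 57% called in all. In GFP 65 passed as lower and 3 as higher, or 79.3% lower, against 52.1% and 21.6% of all genes, or 73.7% together. Both comparisons share the IgG arrays. The direction rests on the scaling: in V5 the member median was 0.12 with spike-in RNA as the base and 0.02 with the array median as the base, and in GFP it was 0.07 with spike-in RNA and -0.11 with the array median. The count of members called in V5, 46 in all, dropped to 17 or 10 when V5 replicate 1 or V5 replicate 2 was left out, and to 25 with IgG replicate 1 left out. The groups share fusion, age and strain, so these values compare the RNA recovered with each antibody. They do not tell which cells that RNA came from.

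The members differed little from each other against the mock. The log2 fold changes had an SD over members of 0.16 in V5 and 0.24 in GFP, against 0.54 and 0.72 over all genes tested. This width does not depend on a shift common to an array, and no test was made of it. Replicates too differed less over members than over all genes, by a median of 0.05 against 0.09 in V5, 0.07 against 0.09 in GFP and 0.12 against 0.16 in IgG. In input it was 0.09 against 0.08. No comparison with genes of like brightness was made. The 45 large subunit genes had medians of -0.25 in V5 and -0.39 in GFP, with 25 and 36 called lower and 1 called higher in each. The 31 small subunit genes had medians of -0.28 and -0.45, with 18 and 27 called lower and none called higher by limma. The difference between the subunits was not tested. Markers of the somatic and blood cell types moved the same way under the 75th percentile scaling, and most germ cell markers did not. Spike-in scaling takes the median of all genes from -0.21 to 0.16 in V5 and from -0.32 to 0.15 in GFP. That shift is common to every gene of an array, so it makes the fall of the somatic and blood cell markers smaller too. Medians of their 6 lists ran from -0.51 to -0.39 in V5 and from -0.84 to -0.54 in GFP. They lay below the family's medians of -0.25 and -0.40, and spike-in scaling does not change that order. For the 6 lists of Sertoli, Leydig, myoid, endothelial, erythroid and blood cell markers the summed level of both V5 arrays and both GFP arrays lay below that of both IgG arrays, and none of their members passed as higher than IgG in either precipitate (limma). For 8 Sertoli markers the sum in multiples of the array's 75th percentile was 171.9 to 181.2 in V5 and 148.6 to 160.6 in GFP, against 234 to 236.4 in IgG. Clu alone makes up most of that sum on every one of these arrays. The median log2 fold change of the 8 was -0.39 in V5 and -0.58 in GFP, and 7 and 8 of them passed as lower (limma). Of 8 germ cell markers 7 were measured, and in each precipitate 4 passed as higher than IgG and 1 as lower, with a median log2 fold change of 0.46 in V5 and 0.45 in GFP. Those higher were Dazl itself (0.98 in V5 and 1.49 in GFP), the receptor gene Kit (1.21 and 1.79), Sycp3 of the synaptonemal complex (1.45 and 1.66) and the helicase gene Ddx4 (0.46 and 0.45). The one lower was Tex101, a germ cell surface protein gene (-0.39 and -0.57). The summed level of the 7 was 196.1 to 207.9 in V5 and 185.2 to 186.4 in GFP, against 221.5 to 259.7 in IgG, but Tex101 alone makes up most of that sum on every one of these arrays. The part of these cells in the family's shift was not tested.

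**Figure D1:**
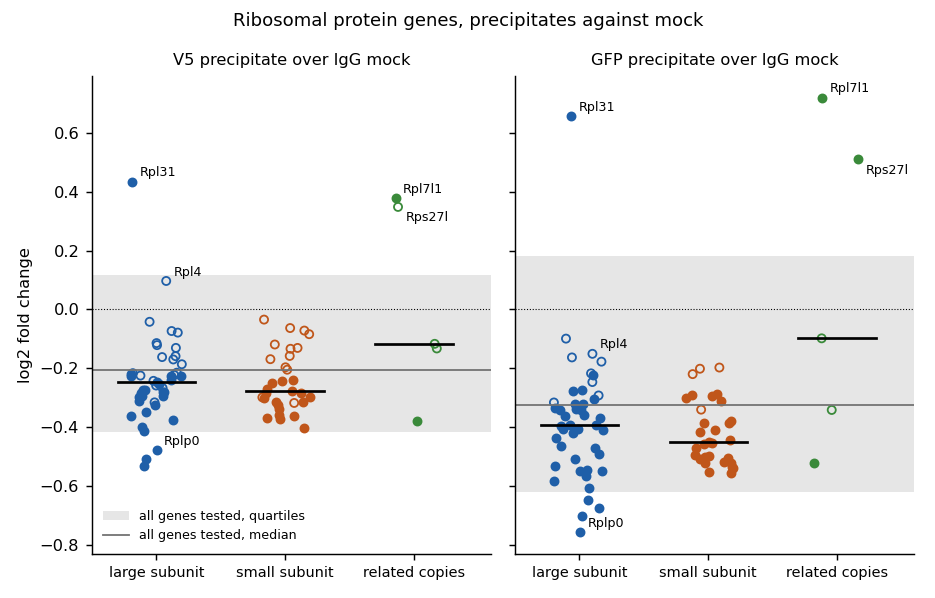
Log2 fold change of the V5 (left) and GFP (right) precipitate over the IgG mock for 45 large subunit genes, 31 small subunit genes and 5 related copies, with 1 point per gene, filled where the limma test passed. Black bars are group medians, the grey line and band are the median and quartiles of all genes tested, and Rps19bp1 is not drawn. Rpl31, Rpl7l1 and Rps27l sit above a family that otherwise lies near the median of all genes. The family's median turns positive in both panels with spike-in RNA as the base, and in V5 also with the array median.

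The exceptions were Rpl31, a large subunit protein at the rim of the exit through which the new chain leaves, and the related copies Rpl7l1 and Rps27l. Rpl31 had levels of 0.77 and 0.75 in V5 and 0.99 and 0.97 in GFP, against 0.45 and 0.20 in IgG and 0.32 and 0.13 in input. Every V5 and GFP array lay above every IgG and input array. Its log2 fold change over IgG was 0.43 ± 0.105 (SE, adjusted p = 0.0144) in V5 and 0.66 ± 0.105 (adjusted p = 0.00164) in GFP. Its second probe gave 0.63 and 1.01. The V5 call was lost with either V5 array left out (0.43 and 0.44) and also with IgG replicate 2 left out (0.31).

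Rpl7l1 is a relative of Rpl7 that takes part in making the large subunit. Its levels were 2.44 and 2.38 in V5 and 2.73 and 2.77 in GFP, against 1.94 and 2.12 in IgG and 2.06 and 2.14 in input. The V5 arrays lay above the IgG and input arrays and the GFP arrays above those of V5. The log2 fold change over IgG was 0.38 ± 0.082 in V5 (SE, adjusted p = 0.0103) and 0.72 ± 0.082 in GFP (adjusted p = 0.000512), and its second probe gave 0.48 and 0.84. The V5 call was lost without V5 replicate 1 (0.35). Rps27l, a copy of Rps27 known as a target of p53, had levels of 6.74 and 6.64 in V5 and 6.90 and 6.81 in GFP, against 6.53 and 6.16 in IgG and 5.81 and 5.91 in input. Its arrays fell in the order GFP, V5, IgG, input without overlap between groups. The excess over IgG was 0.51 ± 0.128 in GFP (SE, adjusted p = 0.0106), while in V5 it was 0.35 ± 0.128 and did not pass (adjusted p = 0.055). Without GFP replicate 1 the GFP call was lost (0.46), and without IgG replicate 1 the V5 value passed (0.53). All 3 genes kept their sign under quantile, spike-in and median scaling, and their values there ran from 0.42 to 0.80 for Rpl31 and from 0.38 to 0.74 for Rpl7l1 in V5.

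At the low end against the mock stood Rplp0 and Rpl21. Rplp0 encodes the protein at the base of the large subunit's stalk, on which the acidic proteins of Rplp1 and Rplp2 sit. Its levels were 5.66 and 5.64 in V5 and 5.41 and 5.33 in GFP, against 6.07 and 6.19 in IgG and 5.24 and 5.38 in input. It fell by 0.48 in V5 (log2 fold change, adjusted p = 0.00514) and by 0.76 in GFP (adjusted p = 0.000423). Rpl21 fell by 0.53 in V5 (adjusted p = 0.00808) and by 0.70 in GFP (adjusted p = 0.00132). It encodes a large subunit protein. Rpl8 and Rps14 were also among the lowest 5 in V5, at -0.41 and -0.40, and Rpl28 and Rpl35 among those in GFP, at -0.65 and -0.61. The Rpl8 call was lost without V5 replicate 2 (-0.39). All of these kept a negative sign under every scaling, with Rplp0 between -0.48 and -0.11 in V5 and Rps14 between -0.40 and -0.04.

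Against input the family was much wider, and one gene stood far from the rest. Rpl4, whose protein reaches into the tunnel through which the new chain passes, had levels of 2.29 and 2.32 in V5, 2.12 and 2.0 in GFP and 2.24 and 2.18 in IgG, against 4.03 and 4.17 in input. All 6 precipitate arrays lay together and none came near the input arrays. Rpl4 was 3.48-fold lower in V5 (log2 fold change -1.80 ± 0.079 SE, adjusted p = 1.2e-05), 4.13-fold lower in GFP (-2.04, adjusted p = 6.01e-06) and 3.72-fold lower in the IgG mock (-1.89, adjusted p = 9.36e-06). Over the mock it was 0.10 in V5 (adjusted p = 0.323) and -0.15 in GFP (adjusted p = 0.125), neither of which passed, and the GFP value was 0.32 with spike-in scaling. Its fold changes over input ran from -2.22 to -1.48 in V5, -2.36 to -1.70 in GFP and -2.68 to -1.84 in IgG over the scalings. In the authors' deposited table, whose values were normalized to the median, the log2 ratio for Rpl4 was -1.54 in V5 and -1.76 in GFP over input. A single probe on a RefSeq transcript measured Rpl4, so no second probe checks it.

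Rpl5, Rps3a and Rpl7 followed Rpl4. Rpl5, which binds 5S ribosomal RNA together with Rpl11, had levels of 6.17 and 6.16 in V5, 5.95 and 5.67 in GFP and 6.26 and 6.15 in IgG, against 7.21 and 7.39 in input. Its log2 fold change was -1.14 ± 0.114 in V5 (SE, adjusted p = 0.000168), -1.49 in GFP (adjusted p = 4.67e-05) and -1.10 in IgG (adjusted p = 0.000166). Rps3a, a small subunit protein, had levels of 4.87 and 4.78 in V5, 4.66 and 4.40 in GFP and 4.97 and 4.85 in IgG, against 5.88 and 6.10 in input. Its log2 fold changes were -1.17 in V5, -1.46 in GFP and -1.08 in IgG, and a second probe gave -0.90, -1.12 and -0.82. For both genes the input arrays stood above all precipitate arrays. Rpl7 of the large subunit gave -0.97 in V5, -1.20 in GFP and -0.80 in IgG, and its 2 other probes lay lower still, at -1.45 and -1.29 in V5 and at -1.41 and -1.16 in IgG. Rpl36al, an autosomal copy of Rpl36a, gave -0.94 in V5, -0.92 in GFP and -0.83 in IgG. Rps6, the substrate of S6 kinase, gave -0.81, -0.98 and -0.69 in that order of groups, and Rpl26 gave -0.82, -1.13 and -0.59. All values named for Rpl5, Rps3a, Rpl7 and Rpl36al kept their sign and their call under the 3 other scalings.

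**Figure D2:**
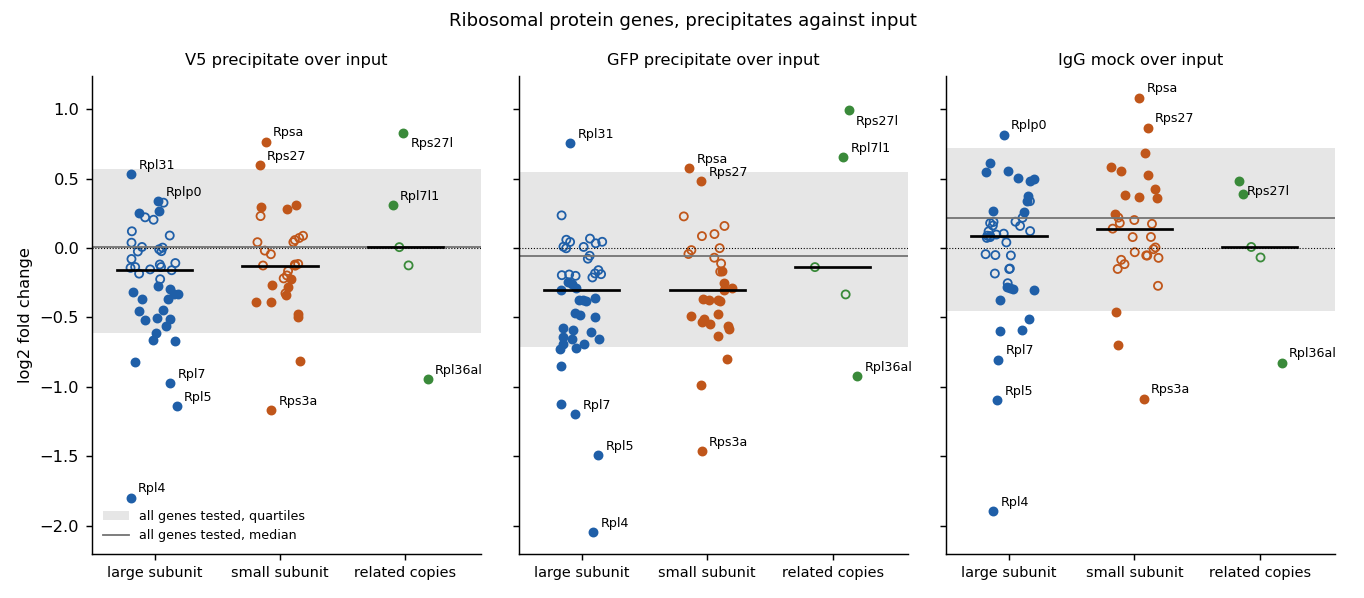
Log2 fold change of the V5, GFP and IgG precipitates over input for the same genes, with filled points where the limma test passed, black bars at group medians, and the median and quartiles of all genes tested in grey. Rpl4 lies near -1.80, -2.04 and -1.89 in the 3 panels, below Rpl5, Rps3a and Rpl7, while group medians lie near those of all genes and change sign with the scaling. The 3 comparisons share the input arrays.

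At the other end against input stood Rpsa, Rps27 and Rps27l. Rpsa, a small subunit protein also known as the laminin receptor, had levels of 5.53 and 5.46 in V5, 5.31 and 5.30 in GFP and 5.77 and 5.85 in IgG, against 4.71 and 4.75 in input. Every precipitate array exceeded both input arrays, with log2 fold changes of 0.77 ± 0.066 in V5 (SE, adjusted p = 9.03e-05), 0.57 in GFP (adjusted p = 0.000281) and 1.08 in IgG (adjusted p = 2.13e-05). Its second probe was higher than input as well, at 1.32, 1.39 and 1.06, but lay above IgG in V5 and GFP, at 0.26 and 0.34, where the first probe lay below it, at -0.32 and -0.51. Rps27, a zinc finger protein of the small subunit, had levels of 7.69 and 7.65 in V5, 7.54 and 7.57 in GFP and 8.04 and 7.84 in IgG, against 7.05 and 7.09 in input. Its log2 fold changes were 0.60 in V5 (adjusted p = 0.000743), 0.48 in GFP (adjusted p = 0.00192) and 0.87 in IgG (adjusted p = 0.000116). Rps27l gave 0.83 in V5, 0.99 in GFP and 0.48 in IgG. The sign held under every scaling for Rpsa and Rps27, while the IgG value of Rps27l was -0.31 with spike-in scaling.

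**Figure D3:**
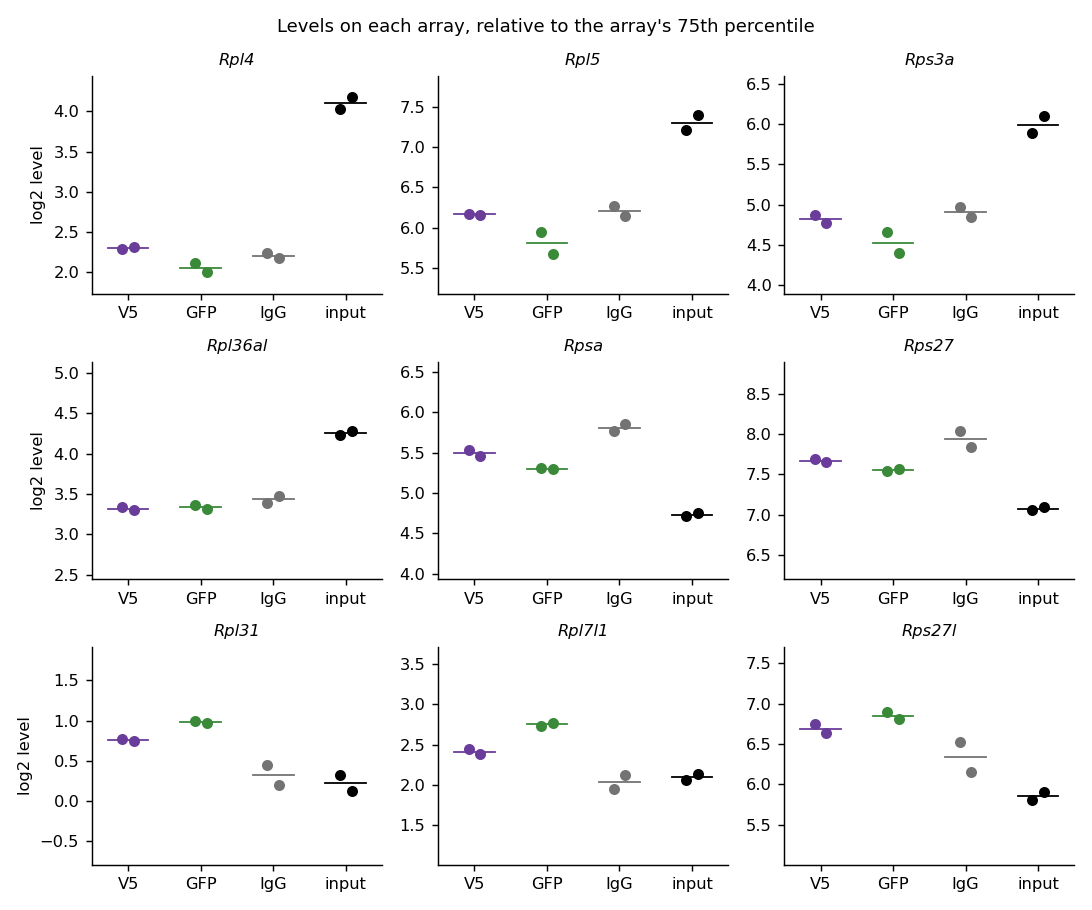
Levels of 9 members on each array, as log2 signal relative to the array's 75th percentile, with 1 point per array, lines at the group means of 2 arrays, and the same height of axis in every panel. Rpl4, Rpl5, Rps3a and Rpl36al are highest in input, Rpsa and Rps27 lowest in input, and Rpl31, Rpl7l1 and Rps27l highest in GFP and V5.

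Over the whole family, members called lower than input outnumbered those called higher in both tagged precipitates and not in the mock. In V5 31 members passed as lower and 11 as higher (limma), with 35.5% of all genes called lower and 37.7% called higher, or 73.2% together. In GFP 46 passed as lower and 5 as higher, with 39.1% and 36.2% of all genes, or 75.2%. In the IgG mock 15 passed as lower and 25 as higher, with 29.3% and 43.9% of all genes, or 73.2%. The member medians were -0.14 in V5, -0.30 in GFP and 0.09 in IgG, where those of all genes were 0.01, -0.06 and 0.22. The IgG median was 0.01 without IgG replicate 1, 0.18 without IgG replicate 2 and 0.06 without input replicate 1, which also left 15 members called higher in IgG and 5 in V5. Without V5 replicate 1 the members called higher in V5 were 6. These directions follow the scaling: with the array median as the base the counts were 12 lower and 30 higher in V5 and 23 lower and 25 higher in GFP, and with spike-in RNA 64 lower and 2 higher in V5, 68 and 4 in GFP, and 70 and 1 in IgG. With quantile normalization the IgG counts were 28 lower and 11 higher. Relative to the median of all genes the member median stood at -0.14 in V5, -0.24 in GFP and -0.12 in IgG, and the spike-in and median scalings, which shift a whole array by one amount, cannot move these values. Other settings did: they were -0.24, -0.35 and -0.32 with quantile normalization, -0.64, -0.72 and -0.41 with normexp background and -0.02, -0.10 and -0.02 with the mean over a gene's probes, and for IgG -0.25 without IgG replicate 1 and 0.01 without IgG replicate 2. The SD over members was 0.42 in V5, 0.48 in GFP and 0.46 in IgG, against 0.94, 1.02 and 0.98 over all genes, which were not matched to the members in brightness.

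The medians of the subunits lay close to each other. Over input the large subunit genes had medians of -0.16 in V5, -0.31 in GFP and 0.09 in IgG, and the small subunit genes -0.13, -0.30 and 0.14. In the IgG mock 11 of 45 large subunit genes passed as lower and 11 as higher, while 3 of 31 small subunit genes passed as lower and 11 as higher. In V5 20 large subunit genes passed as lower and 4 as higher, and 10 small subunit genes as lower and 5 as higher. In GFP the counts were 26 lower and 1 higher for the large subunit and 19 lower and 2 higher for the small subunit. No test of the subunits against each other was made. Across members, the mean level and the log2 fold change over IgG had a Pearson correlation of -0.25 in V5 and -0.28 in GFP over 82 genes that share their arrays, and of 0.26 for IgG over input.

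Within the subunits, neighbours in the ribosome did not always sit together in the data. The 4 stalk genes were all higher in the mock than in input, with log2 fold changes of 0.82 for Rplp0, 0.50 for Rpl12, 0.37 for Rplp2 and 0.26 for Rplp1, while spike-in scaling, which moves the median of all genes to -0.57 from 0.22, leaves Rplp0 at 0.03 and takes the other three below 0. In V5 and GFP 3 of the 4 passed as lower than IgG, where 40.3% and 52.1% of all genes did. Rpl5 and Rpl11, partners on 5S ribosomal RNA, parted against input: Rpl11 was at -0.12 in V5, -0.28 in GFP and 0.12 in IgG, where Rpl5 was at -1.14, -1.49 and -1.10. The tunnel proteins parted too, with Rpl17 at -0.67 in V5 and -0.59 in IgG, and Rpl39 at 0.33 and 0.55. None of the 3 tunnel genes passed against IgG in V5 or GFP by limma, and their values lay between -0.32 and 0.10. Of 6 genes at the exit rim 5 passed as lower than IgG in GFP and 3 in V5, with Rpl19 at -0.27 in V5 and -0.41 in GFP, and Rpl31 was the one that passed as higher. Of 14 genes whose proteins form the head of the small subunit 11 passed as lower than IgG in V5 and 13 in GFP, and none as higher by limma. These small groups are to be read against the same 40.3% of all genes called lower in V5 and 52.1% in GFP, and no test set them against other genes. Rps29 of the head was at -0.37 in V5 and -0.52 in GFP against IgG. These directions over IgG depend on the scaling as the family's do: the median of all genes, -0.21 in V5 and -0.32 in GFP, is 0.16 and 0.15 with spike-in RNA.

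The X-linked members, which lie on a chromosome that is silenced in male germ cells during meiosis, are Rps4x, Rpl10, Rpl36a and Rpl39. Rps4x had levels of 5.50 and 5.53 in V5, 5.20 and 5.19 in GFP and 5.72 and 5.65 in IgG, against 5.74 and 5.74 in input. It was lower in GFP than in IgG (-0.49, adjusted p = 0.000665), and in V5 it was at -0.17 and did not pass (adjusted p = 0.053). With spike-in scaling the GFP value was -0.02 and the V5 value 0.20, and with median scaling they were -0.20 and 0.09. Rpl10 was at -0.28 in V5 (adjusted p = 0.0146) and -0.18 in GFP (adjusted p = 0.0521) over IgG, the first of which was lost without either V5 array and was 0.08 with spike-in scaling. Rpl36a was at -0.12 and -0.22, of which the GFP value passed (adjusted p = 0.0442) but was lost with either GFP array or with IgG replicate 1 left out, and was 0.25 with spike-in and 0.07 with median scaling. Rpl39 was higher in IgG than in input (0.55, adjusted p = 0.0325), a call lost without IgG replicate 1 (0.25) or either input array and turned to -0.24 by spike-in scaling. Its IgG replicates read 5.18 and 4.58.

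Of the other related copies, Rpl3l, a muscle form of Rpl3, was dim on every array, at -2.22 and -2.16 in V5 and -2.26 and -2.41 in GFP, against -1.86 and -1.75 in IgG and -2.29 and -2.10 in input. It passed as lower than IgG in V5 (-0.38, adjusted p = 0.0163) and in GFP (-0.52, adjusted p = 0.00278), the V5 call being lost without either V5 array or IgG replicate 2. Rpl22l1, a copy of Rpl22, passed in no comparison (limma) and ranged from -0.34 in GFP over IgG to 0.21 in V5 over GFP. Among the 5 copies 1 passed as lower and 1 as higher than IgG in V5, and 1 as lower and 2 as higher in GFP. Rps19bp1 was at -0.21 in V5 (adjusted p = 0.116) and -0.46 in GFP (adjusted p = 0.0058) over IgG.

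Between the tagged precipitates, which share a slide, members hardly differed. Of the 82 genes 3 passed as higher in V5 than in GFP and 1 as lower (limma), with 6.76% and 7.17% of all genes, or 13.9% in all. Rps4x was higher by 0.33, Rpl26 by 0.31 and Rpl7a by 0.28 in log2 fold change, and Rpl7l1 fell by 0.34. All of these are close to the threshold, with adjusted p between 0.0319 for Rps4x and 0.0478 for Rpl7a, and no call survived when any 1 of the 4 arrays was left out. The median was 0.16 over members and 0.09 over all genes, and 63 members had both V5 arrays above both GFP arrays, against 45.4% of all genes. The V5 levels of Rpl26 were 5.98 and 5.91, against 5.67 and 5.61 in GFP.

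Other genes of the ribosome and its making behaved in more than one way. Fau and Gnb2l1, whose products include a small subunit protein and the small subunit scaffold Rack1, passed as lower than IgG in both precipitates under the 75th percentile scaling, at -0.34 and -0.27 in V5 and -0.61 and -0.45 in GFP. Of 31 mRNAs outside the family listed as TOP mRNAs, Fau and Gnb2l1 among them, 25 were measured. Of these 9 passed as lower and 3 as higher than IgG in V5, and 15 and 4 in GFP. That is 36% lower and 12% higher in V5 and 60% and 16% in GFP, near the 40.3%, 16.7%, 52.1% and 21.6% of all genes. Nap1l1, a histone chaperone, was higher than IgG by 0.96 in V5 (adjusted p = 0.00107) and 1.47 in GFP (adjusted p = 9.54e-05), and Npm1, a nucleolar chaperone, by 0.93 and 1.28. The elongation factor gene Eef1d was at -0.41 in V5 and -0.70 in GFP. Against input 14 of the 25 passed as lower and 7 as higher in the mock, where 29.3% and 43.9% of all genes did, with Npm1 at -2.27 and Eef1g, another elongation factor gene, at 1.32.

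Of 79 listed ribosome assembly factors 58 were measured. In the IgG mock 37 passed as lower than input and 14 as higher, with a median log2 fold change of -0.81 against 0.22 over all genes. In V5 the counts were 37 and 10 and in GFP 41 and 11. The shares of all genes called lower and higher were 29.3% and 43.9% in IgG, 35.5% and 37.7% in V5, and 39.1% and 36.2% in GFP. Ncl, the nucleolar protein nucleolin, was at -3.70 in V5 and -3.53 in IgG over input, while Nol1 was at 1.0 in V5 and 1.42 in IgG. Over IgG 13 passed as higher and 15 as lower in V5, and 15 and 25 in GFP, where 16.7% and 40.3% of all genes did in V5 and 21.6% and 52.1% in GFP. Nip7, a factor of large subunit assembly, was higher by 1.10 in V5 (adjusted p = 0.000755) and 1.60 in GFP (adjusted p = 7.45e-05), and Rrs1 by 0.88 and 1.42.

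Members with several probes showed that a gene name can hold different measurements. Of 133 kept probes 17 were designed on a sequence other than a RefSeq mRNA, curated or predicted. They are called cDNA probes here, and the split was made after the values were seen. Of these 17 probes 13 passed as higher in the IgG mock than in input and 2 as lower, with a median log2 fold change of 0.82 and 6 above 1, or 35.3%. Of the 116 probes on RefSeq transcripts 34 passed as higher and 28 as lower, with a median of 0.08 and 4 above 1, or 3.45%. Over all kept probes 14.7% of the first kind and 13.7% of the second exceeded 1. The probe of Rplp0 is one of the 17.

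The pairs of probes of one gene name parted as follows. For Rpl27a, a large subunit protein, the cDNA probe read 0.29 and -0.34 in IgG, against -2.35 and -2.13 in input, a log2 fold change of 2.22, while the RefSeq probe read 2.43 and 2.54 in IgG, against 2.77 and 2.76 in input, at -0.28. For Rps21 of the small subunit the cDNA probe gave 2.06 and the RefSeq probes 0.37 and 0.84, and for Rpl13 of the large subunit the cDNA probe gave 2.16 and the RefSeq probes 0.59 and 0.61. Rpl11 gave 1.70 and 0.12, Rps12 1.36 and 0.25, and Rps13 1.31 and -0.07. Rps20 went the other way, with -0.85 for the cDNA probe and 0.38 for the RefSeq probe. In each of these genes a RefSeq probe had the brightest signal and stood for the gene in the tests above. Of the 40 members with several kept probes, all probes had the same sign in 33 for V5 over IgG, 34 for GFP over IgG and 30 for IgG over input.

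**Figure D4:**
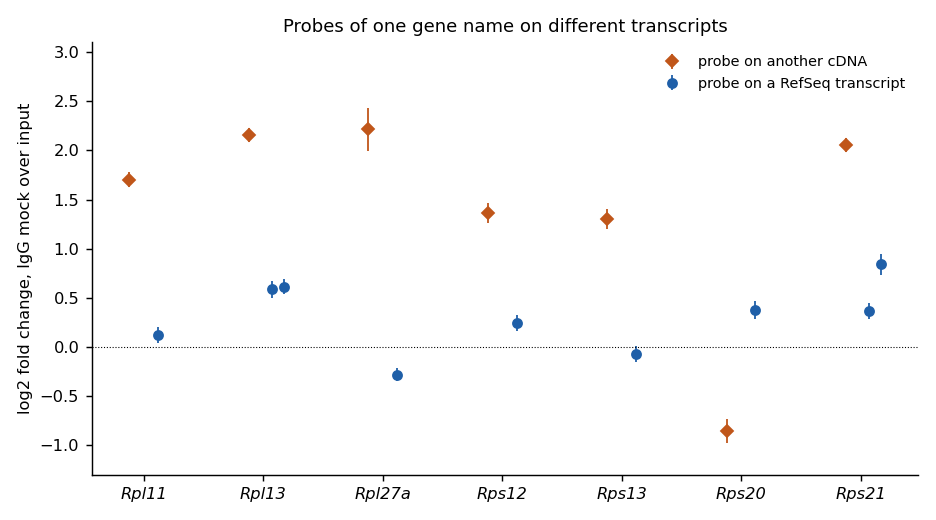
Log2 fold change of the IgG mock over input for each probe of 7 members, with SE from limma. These members have cDNA probes, outside RefSeq's curated and predicted mRNAs (diamonds), and probes on RefSeq transcripts (circles). The cDNA probes of Rpl11, Rpl13, Rpl27a, Rps12, Rps13 and Rps21 lie above 1 and that of Rps20 at -0.85, while the RefSeq probes lie between -0.28 and 0.84.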

How the data were processed

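RNA of 8 samples in 4 groups of 2 (V5, GFP, IgG, input) was hybridised to 1-colour Agilent arrays. Per the file headers, the deposited intensity values come from version 9.1.3.1 of Agilent's Feature Extraction, which subtracted background. The authors' deposited table of the whole series gives signal values normalized to the median and averaged over replicates of V5, GFP and input; 53 members matched it by accession and 6 of its columns were not used.

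Control and outlier spots were left out, log2 of the processed signal was centred on each array's 75th percentile, and spots of 1 probe were averaged. A probe was kept where some group had it well above background on each of its arrays, and a gene name was represented by its brightest probe (17593 genes). All 82 members were found in RefSeq's GRCm38.p6 table. A group-means model of all 8 arrays (limma 3.58.1, R 4.3.3) had 4 residual and 2.41 prior degrees of freedom. The 6 comparisons were tested two-sided, p-values were adjusted after Benjamini and Hochberg across the 17593 genes at a threshold of 0.05, and every adjusted p comes from that fit. Probe values come from the same fit over 25629 probes.

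On simulated data for V5 against IgG over 17593 genes, 0, 12, 37 and 46 of 50 genes changed by log2 0.25, 0.5, 1 and 2 were recovered, with 7 false calls. All other genes were simulated as equal in V5 and IgG, whereas 57% of genes were called in the data. The adjustment is then stricter, and no shift common to an array was simulated, so these counts do not carry over to the data. The number of arrays limits the precision.

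Members and lists were chosen with earlier results of these data known. Named are Rpl4, in each comparison the 5 highest and 5 lowest members, members that passed against the family's direction, X-linked members, related copies and, by counts with examples, groups of neighbours in the ribosome; Rpl26, Rps6, Rpl7a, the probe pairs and the promoters shown were chosen after their values were seen. Values of some genes the rule names are not reported here. Alternatives were quantile, spike-in and median scaling, normexp background (offset 50), the filter on dim probes, the mean over a gene's probes, only the 2 groups compared, the replicate block, leaving out each array, and leaving out the 2 arrays with conflicting descriptions.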

Additional observations from a re-analysis of the deposited data

Results flagged for a closer look

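Members that differed between the V5 and GFP precipitates, 2 tags of the same fusion, are given here as values. Rps4x differed by 0.33, Rpl26 by 0.31 and Rpl7a by 0.28 in log2 fold change, V5 over GFP, and Rpl7l1 by -0.34 (limma). Each of these calls was lost when any 1 of the 4 arrays was left out.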

How the results depend on the processing

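The precision rests on 2 arrays per group, signals relative to other genes of the same array, and for Rpl4, Rpl5, Rps27, Rps27l and Rplp0 a single probe. The cause of the changes below was not tested.

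Of 1397 recomputed values for 101 pairs of a named member and a comparison, 1177 kept direction and side of the threshold, 154 lost the call, 41 gained one and 25 changed sign. The largest losses came with normexp background (39).

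Scaling to spike-in RNA gave 6 members called for V5 against IgG, 9 for GFP against IgG, 71 for IgG against input, 66 for V5 against input and 1 for V5 against GFP, in place of 46, 68, 40, 42 and 4. Medians there were 0.12, 0.073, -0.70 and -0.56 for the first 4, and -0.61 for GFP against input. Under it the sign turned for V5 against IgG in Rpl10 (0.084) and Rpl36al (0.25), and for GFP against IgG in Rpl10 (0.30), Rpl17 (0.37), Rpl36a (0.25), Rpl36al (0.37) and Rpl4 (0.32). It turned for IgG against input in Rpl10 (-0.67), Rpl13 (-0.18), Rpl22l1 (-0.78), Rpl39 (-0.24), Rpl3l (-0.41), Rps27l (-0.31) and Rps29 (-0.11), and for V5 against input in Rpl3l (-0.42), Rpl7l1 (-0.11) and Rplp0 (-0.086).

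Scaling to the array median gave 5, 19 and 2 members called for V5 against IgG, GFP against IgG and V5 against GFP. Medians were 0.016 for V5 and -0.11 for GFP against IgG, and 0.18 for V5 and 0.046 for GFP against input. The sign turned for GFP against IgG in Rpl36a (0.067) and Rpl36al (0.19), for V5 against input in Rpl36a (0.042) and Rps4x (0.092), and for GFP against input in Rpl10 (0.29). The authors' deposited table gave medians of 0.15 for V5 and 0.035 for GFP over input, across 53 members.

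Quantile normalization gave 14 members called (3 higher) for V5 against IgG and 39 for GFP against IgG, with medians of -0.057 and -0.21, and a median of -0.12 for IgG against input. Normexp background gave 0 (4 at an unadjusted p under 0.05), 3, 12, 16, 21 and 0 (also 0 at an unadjusted p under 0.05) members called by limma, first for V5 and GFP against the mock, then for IgG, V5 and GFP against input, and last between the tags. Its medians against input were -0.013 for IgG, -0.33 for V5 and -0.46 for GFP. Across these scalings and background settings the median of all genes for V5 against input moved between -0.42 and 0.32.

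The mean over a gene's probes gave a median of -0.063 for V5 against input, and turned Rpl36a to 0.29, 0.11 and 0.010 for IgG, V5 and GFP against input. Without a filter on dim probes 24 members were called for V5 against IgG and 0 for V5 against GFP (18 at an unadjusted p under 0.05). With probes above background on all 8 arrays V5 against GFP gave 7. With only the 2 groups compared it gave 0 (26 unadjusted), and V5 against IgG gave 15. Without both arrays of conflicting descriptions limma called 0 for V5 against IgG (28 unadjusted), 18 and 33 for V5 and GFP against input, and 0 for V5 against GFP (3 unadjusted).

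Leaving out each array gave 10 to 54 members called for V5 against IgG, and 0 in each case for V5 against GFP (4 to 18 at an unadjusted p under 0.05). With the replicate block V5 against GFP gave 0 (18 unadjusted), and V5 against IgG 38. Same-numbered arrays did not deviate together from their group means (correlations over genes from -0.07 to 0.11), so the numbers were not used as a pairing. With 2 arrays per group the deviations of replicate 2 only mirror those of replicate 1.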
